A study of Arabidopsis thaliana with 12 samples.

Results

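Class III peroxidases are secreted, heme-containing plant enzymes, and 60 genes of this family (the PER genes) were taken by their identifiers. Of the 60, 59 were found among 25872 genes of *Arabidopsis thaliana* (AT4G17690 was not analysed here), and 56 of the 59 passed the filter on low values. The table had 12 root RNA-seq libraries, 3 for each of 4 groups, from *GmNTL4*-OX plants (OX) and from wild type (WT), each under Al and in control. *GmNTL4* is a soybean gene for a NAC transcription factor with a membrane anchor, which OX plants carried behind the constitutive 35S promoter. According to the methods, Al was given as 5 µM AlCl3 for 48 h in a nutrient solution of pH 4.5 without phosphate, while the labels give 24 h. The RNA-seq methods describe this solution only with Al, and the root elongation assay used it with and without Al. The labels do not say which transgenic line was sampled or how many plants made up a library, and the level of the soybean transcript was not analysed here. Nothing in the labels says that the replicates came from separate cultures, so the p-values measure the spread between these libraries, which may be technical.

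Each library held 16071341 to 17103618 fragments on genes, read back from the deposited FPKM (fragments scaled to gene length and to library size). Root hair, endodermis and xylem markers were detected in every group. The markers of photosynthetic shoot tissue summed to 494 and 304 FPKM in WT under Al replicates 2 and 3 and to 276 FPKM in WT control replicate 1, against 28.2 to 87.0 FPKM in the other 9 libraries. Both control libraries numbered 1 stood apart in the 3 Al-inducible genes, which summed to 47.1 FPKM in OX and 26.8 FPKM in WT there, against 303 to 580.1 FPKM under Al and 169.6 to 293 FPKM in the other 4 control libraries. The part of these libraries in the results was not tested beyond leaving out each library singly and both control libraries numbered 1 together. Values from these fits are given where a call changed. The WT libraries with high shoot markers were not left out together.

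Class III peroxidases work in the cell wall, where they use hydrogen peroxide to couple phenolic compounds into lignin and suberin and to cross-link extensins, and can in another cycle produce reactive oxygen species. The hydrogen peroxide comes in part from NADPH oxidases of the plasma membrane, the RBOH enzymes. Different members act in different cells of the root: some in the growing root hair, some in the Casparian strip of the endodermis, and some in lignified xylem and fibres. Stiffening of the wall by such cross-links and a burst of reactive oxygen species are known responses of roots to Al.

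Of the 56 members tested, 5 were called (meaning here that limma gave an adjusted p not above 0.05 together with a log2 change of 1 or more in either direction) in a comparison of Al with control, each of them lower under Al. Their positions are AT3G03670 (chr3:901728-903411, minus strand, upstream window chr3:903412-903661), AT3G01190 (chr3:67032-68665, minus strand, upstream window chr3:68666-68915), AT5G64100 (chr5:25650567-25652247, minus strand, upstream window chr5:25652248-25652497), AT5G67400 (chr5:26894778-26896488, plus strand, upstream window chr5:26894528-26894777) and AT1G30870 (chr1:10991478-10993083, plus strand, upstream window chr1:10991228-10991477). The 250 bases upstream of the annotated start of these genes are shown because they are the members on which the calls rest. The sequences are from RefSeq, build TAIR10.1, 5′ to 3′ on the strand of the gene. Capitals mark CATGT or its reverse complement ACATG, and CACG or its reverse complement CGTG, which are both short cores known from the binding sites of NAC factors.
AT3G03670: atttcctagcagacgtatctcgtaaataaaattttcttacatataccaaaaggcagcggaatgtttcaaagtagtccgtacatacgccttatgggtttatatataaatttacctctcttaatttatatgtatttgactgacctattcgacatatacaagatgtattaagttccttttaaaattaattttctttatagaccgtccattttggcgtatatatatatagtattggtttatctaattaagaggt
AT3G01190: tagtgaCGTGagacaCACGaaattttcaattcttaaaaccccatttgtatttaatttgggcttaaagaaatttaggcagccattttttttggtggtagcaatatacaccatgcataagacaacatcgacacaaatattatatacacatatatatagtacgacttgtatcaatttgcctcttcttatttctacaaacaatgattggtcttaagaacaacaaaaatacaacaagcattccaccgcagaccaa
AT5G64100: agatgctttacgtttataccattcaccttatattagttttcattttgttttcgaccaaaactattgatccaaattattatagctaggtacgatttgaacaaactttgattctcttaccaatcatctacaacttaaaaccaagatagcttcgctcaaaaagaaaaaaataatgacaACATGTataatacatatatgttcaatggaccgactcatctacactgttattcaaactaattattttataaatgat
AT5G67400: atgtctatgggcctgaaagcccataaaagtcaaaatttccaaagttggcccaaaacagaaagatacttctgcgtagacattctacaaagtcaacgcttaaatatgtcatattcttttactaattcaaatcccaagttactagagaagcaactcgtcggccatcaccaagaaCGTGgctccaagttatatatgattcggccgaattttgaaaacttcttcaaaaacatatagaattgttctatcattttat
AT1G30870: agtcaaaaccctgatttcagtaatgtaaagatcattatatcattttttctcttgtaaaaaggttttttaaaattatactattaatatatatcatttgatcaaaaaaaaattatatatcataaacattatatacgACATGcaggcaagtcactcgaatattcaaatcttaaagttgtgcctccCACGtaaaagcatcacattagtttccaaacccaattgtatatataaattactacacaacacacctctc
The window of AT3G03670 held neither motif. In AT5G64100 both matches of CATGT were the 2 strands of 1 palindrome, ACATGT, and AT1G30870 had CATGT and CACG 1 time each. AT3G01190 had CACG 2 times and AT5G67400 1 time. Over the family, CATGT stood in 24 of 59 windows (40.7%), compared to 34.8% of 27443 windows of all genes, and CACG in 27 (45.8%), compared to 45.6%. A match is only a description of the letters in these windows.

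The levels of the members covered a wide range. In means over the 12 libraries, 13 members had at least 100 FPKM, 33 had 10 to 100 FPKM, 6 had 1 to 10 FPKM and 7 had less than 1 FPKM, and no member was at 0 in all libraries. The 4 highest members made up 43.5% to 54.1% of the summed FPKM of the family in each library. AT4G21960 had 1330.2, 1450.0 and 1390.4 FPKM in OX and 1557, 1252 and 1657 FPKM in WT under Al, against 1327, 1829 and 1417 FPKM in OX control and 1417, 1381 and 1894 FPKM in WT control. This gene, annotated as PRXR1, had the highest level of the family in 10 of the 12 libraries, and its groups overlapped in every comparison. AT3G49120 had 558, 594 and 621 FPKM in OX and 361, 686 and 408 FPKM in WT under Al, against 317, 687 and 480.5 FPKM in OX control and 313, 571 and 702 FPKM in WT control. AT3G49120 (PRXCB) is an apoplastic peroxidase known from the oxidative burst of defence, and its lowest values were those of both control libraries numbered 1. AT5G39580 had 532, 416 and 389 FPKM in OX and 253, 349.5 and 334 FPKM in WT under Al, against 316, 430.1 and 631 FPKM in OX control and 191, 423 and 302 FPKM in WT control. AT1G49570 had 301, 364 and 310.3 FPKM in OX and 252, 604 and 194 FPKM in WT under Al, against 164, 684 and 209.5 FPKM in OX control and 338, 353 and 638 FPKM in WT control. The libraries of both genes overlapped between Al and control in each genotype. AT2G38380 had 303, 339.6 and 324 FPKM in OX and 347, 277 and 293 FPKM in WT under Al, against 345, 436 and 383 FPKM in OX control and 235, 429.5 and 545 FPKM in WT control. AT3G21770 had 329, 344 and 352 FPKM in OX and 328, 234 and 324 FPKM in WT under Al, against 369.6, 317 and 373 FPKM in OX control and 205, 382 and 474 FPKM in WT control. For AT2G38380, all OX libraries under Al lay below all OX control libraries, but the difference was small.

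AT5G19890 had 166, 160.5 and 202 FPKM in OX and 135, 259 and 91.9 FPKM in WT under Al, against 92.2, 441 and 139.5 FPKM in OX control and 152, 265 and 413 FPKM in WT control. AT4G30170 had 211, 133 and 127 FPKM in OX and 262, 118 and 227 FPKM in WT under Al, against 172, 232 and 263 FPKM in OX control and 164, 169.6 and 147 FPKM in WT control. AT5G19890 had its lowest value in WT under Al replicate 3 and its highest in OX control replicate 2, and its groups overlapped in every comparison. At the low end, AT5G58390, AT5G58400 and AT1G24110 did not pass the filter and had at most 0.724 FPKM in any library. AT3G49110 (PRXCA), whose protein was 92.9% identical to that of AT3G49120, had 0.0767 to 2.13 FPKM, compared to 313 to 702 FPKM of its near copy.

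**Figure D1:**
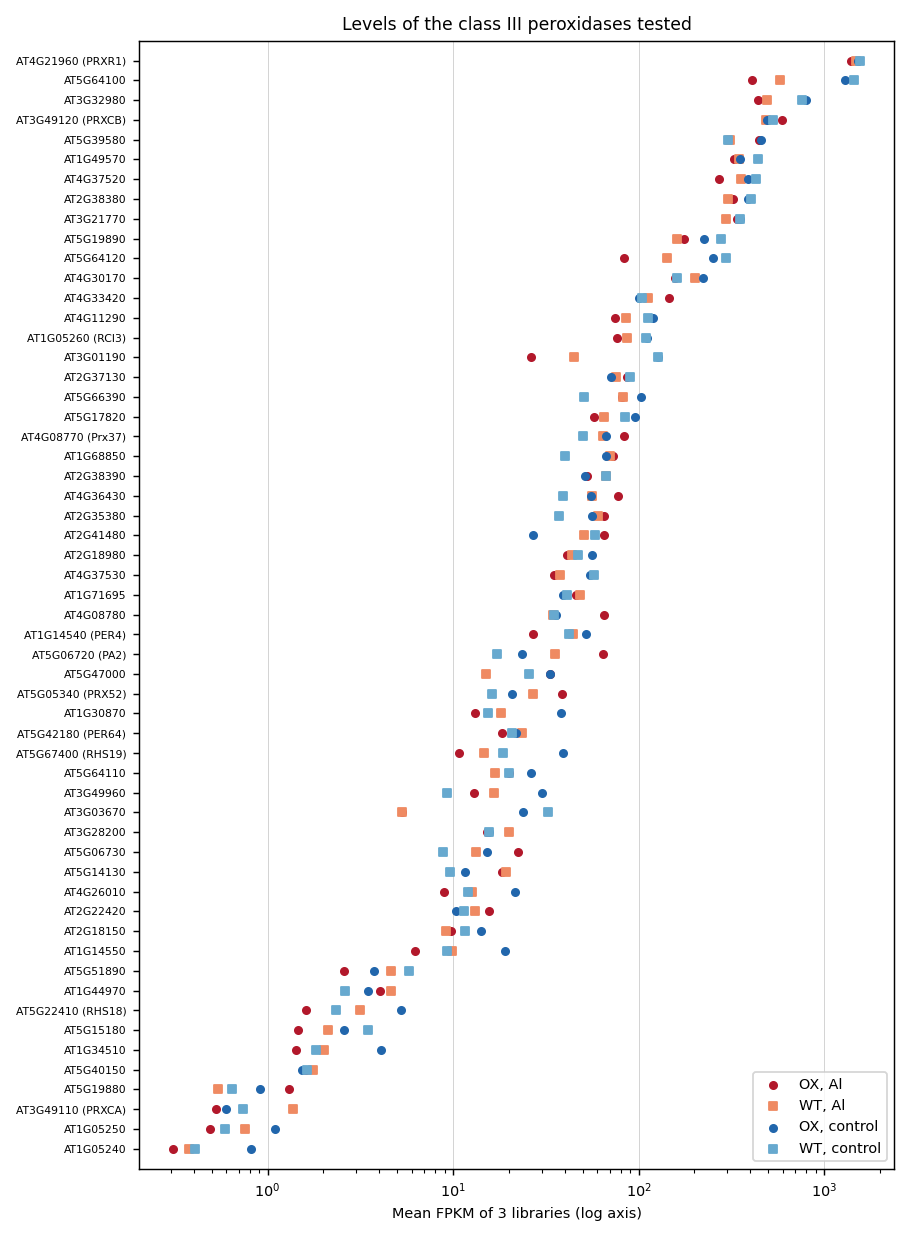
Mean FPKM of the 3 libraries of each group (log axis) for the 56 members tested, ordered by the mean of all 12 libraries. Most members had similar levels in the 4 groups, while AT3G03670, AT3G01190 and AT5G64100 had both Al groups to the left of both control groups.

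The summed FPKM of the family was lower under Al. The FPKM of the 59 members summed to 6593, 6469.9 and 6312 FPKM in OX and 6306, 6828 and 6649 FPKM in WT under Al, against 7932, 9586 and 7798 FPKM in OX control and 8440.3, 7905 and 8978 FPKM in WT control. All 6 Al libraries (6306 to 6828 FPKM) were below all 6 control libraries (7799 to 9586 FPKM), and the genotypes overlapped under both treatments. AT5G64100 alone made up a large part of the difference: without it the sums were 5856 to 6128 FPKM under Al and 6139.9 to 8391 FPKM in control, still with no overlap but with the nearest libraries close together. The sums are a description and were not tested.

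**Figure D2:**
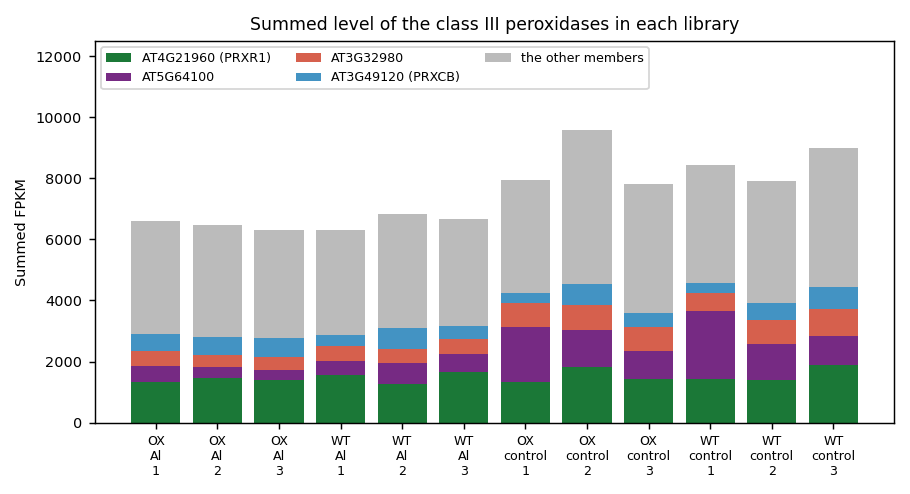
Summed FPKM of the 59 members in each of the 12 libraries, with the 4 highest members in colour and the others in grey. The Al libraries reached 6306 to 6828 FPKM and the control libraries 7799 to 9586 FPKM, and AT5G64100 was lower in each Al library.

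To find the effect of Al that both genotypes shared, the difference between Al and control was averaged over OX and WT. Of the 56 members, 4 were called, all lower under Al (7.14%, compared to 0.775% of 20773 genes called lower), namely AT3G03670, AT3G01190, AT5G64100 and AT5G67400. At an adjusted p of at most 0.05 with no limit on the fold change, 6 members were lower and 1 was higher (12.5% in all, compared to 5.13% of all genes), and 23 had an unadjusted p under 0.05, compared to 18.3% of all genes. In 5 members all 6 Al libraries lay below all 6 control libraries (8.93%, compared to 1.89% of all genes), and in none did all Al libraries lie above, compared to 1.05% of all genes. The median log2 fold change of the members was -0.13, while that of all genes was 0.00.

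AT3G03670 had the largest change of the family. AT3G03670 had 6.14, 4.12 and 5.60 FPKM in OX and 1.90, 6.81 and 7.18 FPKM in WT under Al, against 35.2, 17.6 and 19.1 FPKM in OX control and 34.8, 17.2 and 45.5 FPKM in WT control. The means were 5.29 ± 1.05 FPKM in OX under Al and 23.9 ± 9.77 FPKM in OX control (SD, n = 3 each), and 5.30 ± 2.95 FPKM in WT under Al and 32.5 ± 14.3 FPKM in WT control (SD, n = 3 each). No Al library came near any control library, and the averaged log2 fold change was -2.30 (adjusted p = 0.004, SE 0.33). AT3G01190 had 43.7, 16.5 and 18.6 FPKM in OX and 47.7, 25.3 and 61.1 FPKM in WT under Al, against 188, 94 and 98.9 FPKM in OX control and 186, 69.2 and 128 FPKM in WT control. Every Al library was again below every control library, and AT3G01190 fell by 1.90 on the log2 scale (SE 0.33, adjusted p = 0.00926). AT5G64100 had 521, 357 and 343 FPKM in OX and 449.8, 699.8 and 578 FPKM in WT under Al, against 1792, 1194 and 929.5 FPKM in OX control and 2231, 1186 and 926 FPKM in WT control. The second most abundant member thus had 343 to 699.8 FPKM under Al, compared to 926 to 2231 FPKM in control, with a log2 fold change of -1.45 (adjusted p = 0.00934, SE 0.25). These 3 calls held without any 1 of the 12 libraries and in all other alternatives run.

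Moreover, 2 further members were lower in all Al libraries with a smaller fold change. AT3G32980 had 489, 412 and 418 FPKM in OX and 507, 466 and 510.2 FPKM in WT under Al, against 805, 814 and 769.5 FPKM in OX control and 602, 788 and 904 FPKM in WT control. The log2 fold change of AT3G32980 was -0.73 (adjusted p = 0.00955, SE 0.13). AT4G37530 had 30.2, 40.6 and 33.7 FPKM in OX and 36, 40.9 and 36.5 FPKM in WT under Al, against 54.4, 57.4 and 53.3 FPKM in OX control and 71.1, 52.3 and 48.6 FPKM in WT control. AT4G37530 had a log2 fold change of -0.62 (adjusted p = 0.00719, SE 0.10), with SDs of at most 12.1 FPKM in any group. The only member higher at an adjusted p of at most 0.05 was AT5G14130. AT5G14130 had 13.5, 21.1 and 20.2 FPKM in OX and 24.8, 16.8 and 16.1 FPKM in WT under Al, against 16.4, 7.57 and 10.9 FPKM in OX control and 9.62, 8.79 and 10.4 FPKM in WT control. Its log2 fold change was 0.81 (adjusted p = 0.031, SE 0.19), and the groups of OX overlapped through OX control replicate 1. The protein of AT5G06720 (PA2) is also known as peroxidase 53. AT5G06720 had 25.7, 83.5 and 83.6 FPKM in OX and 32, 49.3 and 25.3 FPKM in WT under Al, against 15.3, 31.5 and 23.3 FPKM in OX control and 8.74, 27.8 and 15 FPKM in WT control. Though its log2 fold change was the largest positive one of the family, at 1.22 (adjusted p = 0.0813, SE 0.36), it did not pass the test.

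**Figure D3:**
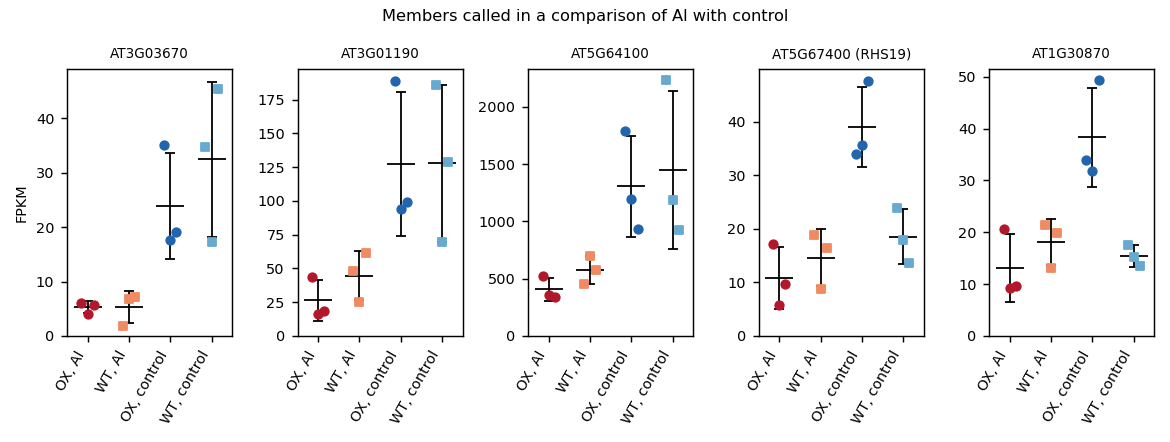
FPKM of the 5 members called, 1 panel each, with the 3 libraries of a group as points and the mean and SD as bars. The Al groups lie below both control groups for AT3G03670, AT3G01190 and AT5G64100, while AT5G67400 and AT1G30870 had their 3 highest values in OX control.

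Within the genotypes the calls were fewer and less stable. In OX, 3 members were called, all lower under Al (5.36%, compared to 0.578% of all genes): AT3G01190 at -2.32 (adjusted p = 0.0447, SE 0.47), AT5G67400 at -1.92 (adjusted p = 0.0367, SE 0.37) and AT1G30870 at -1.58 (adjusted p = 0.0316, SE 0.30). In 20 members all OX libraries under Al lay below all OX control libraries (35.7%, compared to 11.4% of all genes), and in 3 they lay above (5.36%, compared to 9.11%). Without both control libraries numbered 1 these counts were 24 and 4 members, compared to 17.9% and 14.2% of all genes (42.9% and 7.14% of the members). The median log2 fold change of the members in OX was -0.26, compared to -0.01 over all genes. The 3 calls were each lost without OX under Al replicate 2 (adjusted p = 0.169 to 0.233) or 3 (0.158 to 0.203), and without OX control replicate 1 (0.0823 to 0.129), 2 (0.0768 to 0.092) or 3 (0.0974 to 0.121). Those of AT5G67400 and AT1G30870 were also lost without WT control replicate 2 (adjusted p = 0.06 and 0.0525), and that of AT3G01190 without WT under Al replicate 1 (0.0656) or WT control replicate 3 (0.0568). Without OX under Al replicate 1, in contrast, 6 members were called, and without both control libraries numbered 1 none were (adjusted p = 0.0673 to 0.0934 for these 3).

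In WT, 1 member was called, AT3G03670, which was lower under Al at -2.58 (adjusted p = 0.0441, SE 0.47). This is 1.79% of the members, compared to 0.168% of all genes. The groups did not overlap in 5 members that were lower (8.93%, compared to 8.17% of all genes) and in 4 that were higher (7.14%, compared to 8.25%), so that the shares of members were near those of all genes. Without both control libraries numbered 1 they were 10 and 6 members (17.9% and 10.7%, compared to 17.6% and 17.2% of all genes). The median log2 fold change of the members was 0.00, compared to 0.01 over all genes. The call of AT3G03670 was lost without WT under Al replicate 1, 2 or 3 (adjusted p = 0.124, 0.111 and 0.0584), without WT control replicate 1 or 3 (0.0803 and 0.189), without OX under Al replicate 2 or 3 (0.0693 and 0.071) and without OX control replicate 2 or 3 (0.0628 and 0.0687). The log2 fold change itself lay between -2.97 and -2.03 when any 1 of the 12 libraries was left out, and without both control libraries numbered 1 the adjusted p was 0.0656. The call was also lost with the replicate block (adjusted p = 0.0625), with no filter on low values (0.0689), without a variance trend (0.066), with voom (0.0811) and in a fit restricted to the 6 WT libraries (0.145). The largest positive values among members whose WT groups did not overlap were those of AT5G14130 (0.94), AT2G35380 (0.81) and AT5G66390 (0.72), with adjusted p of 0.145 to 0.302. AT2G35380 had 52.1, 69 and 74.1 FPKM in OX and 61.5, 61.6 and 59.1 FPKM in WT under Al, against 68.5, 39.3 and 59.6 FPKM in OX control and 19.4, 48.2 and 43.7 FPKM in WT control. Here WT control replicate 1 was the lowest of the 12 libraries.

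**Figure D4:**
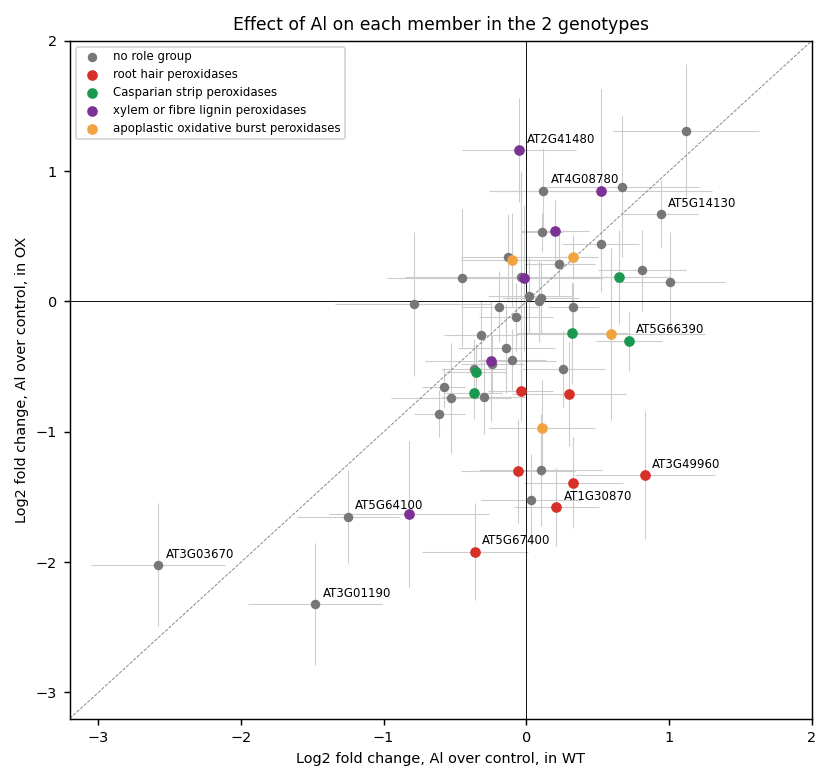
Log2 fold change of Al over control in OX (vertical axis) against that in WT (horizontal axis) for the 56 members, with bars of 1 SE, the line of equal effects dashed and the role groups in colour. AT3G03670, AT3G01190 and AT5G64100 were lower in both genotypes, while the root hair peroxidases lay between -1.92 and -0.69 in OX and between -0.36 and 0.83 in WT.

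Without Al, no member passed the test between OX and WT, though the groups did not overlap in a larger share of members than of all genes. In control, 0 of 56 members were called, compared to 0.0433% of all genes. Limma voom on the recovered fragments also called 0, while 11 members had an unadjusted p under 0.05, compared to 4.71% of all genes. The OX control libraries were all above the WT control libraries in 11 members (19.6%, compared to 3.93% of all genes) and all below in 1 (1.79%, compared to 3.91%). Without both control libraries numbered 1 these counts were 19 and 3 members (33.9% and 5.36%, compared to 19.7% and 17.2% of all genes). The median log2 fold change of the members was 0.22, compared to -0.01 over all genes. The 3 largest values among the members that did not overlap were those of AT3G49960 (1.68), AT1G30870 (1.27) and AT5G67400 (1.07), all of them root hair peroxidases. The member that was lower was AT2G41480, also known as peroxidase 25, with a log2 fold change of -0.93 (adjusted p = 1, SE 0.40).

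Under Al, 0 of 56 members were called between OX and WT, compared to 0.0385% of all genes, and voom called 0 as well. An unadjusted p under 0.05 was found in 5 members, compared to 10.8% of all genes. The OX libraries were all above the WT libraries in 7 members (12.5%, compared to 8.77% of all genes) and all below in 2 (3.57%, compared to 10.8%). AT5G47000 had 34.3, 33.4 and 32.3 FPKM in OX and 13.7, 15.8 and 15.4 FPKM in WT under Al, against 13.1, 45.9 and 41.1 FPKM in OX control and 2.50, 28.5 and 45.7 FPKM in WT control. OX under Al thus had 33.3 ± 0.994 FPKM and WT under Al 15 ± 1.12 FPKM (SD, n = 3 each), a log2 fold change of 1.13 (adjusted p = 0.621, SE 0.81). The spread of this gene was large in control, and a fit to only the 6 Al libraries called it (adjusted p = 0.018), as did the fit without both control libraries numbered 1 (0.049).

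AT4G08780 had 53.2, 70 and 71.2 FPKM in OX and 38.3, 27.5 and 38.4 FPKM in WT under Al, against 30.2, 42.2 and 34.8 FPKM in OX control and 17.4, 32.6 and 55.4 FPKM in WT control. For AT4G08780, OX under Al lay above WT under Al and above OX control, and its log2 fold change over WT was 0.89 (adjusted p = 0.39, SE 0.33). AT5G06730 had 21, 22.6 and 23.1 FPKM in OX and 11.3, 13.1 and 15.4 FPKM in WT under Al, against 3.81, 25.2 and 16.6 FPKM in OX control and 4.30, 11.2 and 10.9 FPKM in WT control. For AT5G06730 the log2 fold change over WT was 0.74 (adjusted p = 0.633, SE 0.54), and both control libraries numbered 1 had its lowest values. The 2 members that were lower in every OX library under Al were AT4G37520 (-0.40) and AT2G38390 (-0.33). AT4G37520 had 264, 284 and 265 FPKM in OX and 333, 388 and 353 FPKM in WT under Al, against 296, 520.4 and 348 FPKM in OX control and 548, 343 and 399.7 FPKM in WT control. AT2G38390 had 45.5, 55.6 and 57.1 FPKM in OX and 80.1, 58.8 and 60.9 FPKM in WT under Al, against 50.4, 50.3 and 53.4 FPKM in OX control and 38.3, 59.7 and 102 FPKM in WT control. Neither passed the test, with adjusted p of 0.539 and 0.676.

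In the average over both treatments, 0 members were called between OX and WT, compared to 0.106% of all genes, voom called 0, and 5 members had an unadjusted p under 0.05, compared to 9.68% of all genes. Only AT4G08770 (Prx37) was above WT in every OX library, under Al as in control. AT4G08770 had 80, 79 and 91.2 FPKM in OX and 76.3, 49.5 and 66.5 FPKM in WT under Al, against 62.5, 82.5 and 54.5 FPKM in OX control and 53.8, 50.1 and 46.6 FPKM in WT control. Its averaged log2 fold change was 0.39 (adjusted p = 0.393, SE 0.12), small and not past the test. The interaction, which is the difference between the effects of Al in OX and in WT, was called for 0 members, compared to 0% of all genes, and voom called 0 members. An unadjusted p under 0.05 was found in 8 members, all negative (14.3%, compared to 2.43% of all genes negative and 4.98% in either direction). These were AT3G49960 (-2.16), AT1G30870 (-1.79), AT5G22410 (-1.72), AT5G67400 (-1.55), AT1G14550 (-1.55), AT1G34510 (-1.39), AT4G26010 (-1.25) and AT5G66390 (-1.02), and their adjusted p was 0.913 to 0.94.

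Of these 8 members, 5 belong to the 7 peroxidases known from root hairs. Root hairs are long outgrowths of single epidermal cells, and their tip growth depends on the loosening and stiffening of the wall. In OX, 2 of the 7 were called lower under Al (compared to 0.578% of all genes), 6 had an unadjusted p under 0.05 (compared to 13.7% of all genes in either direction), and 5 were lower without overlap (compared to 11.4%), with a median log2 fold change of -1.33. Voom also called 2 of the 7 lower there, compared to 94 of 20771 genes. In WT none of the 7 was called, none had an unadjusted p under 0.05, voom called 0, and the median was 0.21. Between OX and WT in control none of the 7 was called, voom called 0, and the median was 0.96. In that comparison 5 had an unadjusted p under 0.05 (compared to 4.71% of all genes), and 6 were higher in OX without overlap (compared to 3.93%). Without both control libraries numbered 1, the share over all genes was 19.7%. That share comes from fewer libraries a group, so the count of 6 cannot be set against it. The comparison of Al with control in OX and that of OX with WT in control share the 3 OX control libraries. The difference between the genotypes in the effect of Al did not pass the test for any of these genes.

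AT5G67400 and AT5G22410 are annotated as RHS19 and RHS18, root hair specific genes. AT5G67400 had 17.2, 5.70 and 9.62 FPKM in OX and 18.8, 8.77 and 16.4 FPKM in WT under Al, against 34, 35.6 and 47.7 FPKM in OX control and 23.9, 18 and 13.7 FPKM in WT control. OX control was above every other library, with 39.1 ± 7.46 FPKM compared to 18.6 ± 5.14 FPKM in WT control (SD, n = 3 each), a log2 fold change of 1.07 (adjusted p = 0.828, SE 0.37). AT1G30870 had 20.6, 9.15 and 9.55 FPKM in OX and 21.4, 13.1 and 19.8 FPKM in WT under Al, against 33.9, 31.8 and 49.3 FPKM in OX control and 17.6, 15.2 and 13.4 FPKM in WT control. For AT1G30870 the 3 OX control libraries were likewise the highest of the 12, while OX under Al and WT under Al overlapped with WT control, and OX in control was 1.27 above WT on the log2 scale (SE 0.30, adjusted p = 0.38). AT3G49960 had 22.9, 10 and 5.87 FPKM in OX and 22.5, 10.2 and 17 FPKM in WT under Al, against 18, 32.9 and 40 FPKM in OX control and 7.19, 14.3 and 6.25 FPKM in WT control. Its OX control values were all above those of WT control, but they overlapped with OX under Al. The averaged call of AT5G67400, -1.14 (adjusted p = 0.0312, SE 0.26), was lost without OX under Al replicate 2 (adjusted p = 0.0704 at a log2 fold change of -0.96) or 3 (0.0802), WT under Al replicate 2 (0.0644), OX control replicate 1, 2 or 3 (0.0506, 0.059 and 0.0709) and WT control replicate 1 or 2 (0.0571 and 0.0601), and also without both control libraries numbered 1 (0.075).

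AT4G26010 had 13.9, 5.31 and 7.53 FPKM in OX and 14.6, 5.67 and 17.8 FPKM in WT under Al, against 20, 17 and 27.4 FPKM in OX control and 11.9, 10.5 and 13.5 FPKM in WT control. AT5G22410 had 2.22, 1.06 and 1.57 FPKM in OX and 3.27, 1.96 and 4.16 FPKM in WT under Al, against 2.97, 5.14 and 7.57 FPKM in OX control and 2.96, 2.48 and 1.60 FPKM in WT control. Of the 3 highest values of each gene, 2 were in OX control, and all OX libraries under Al lay below all OX control libraries. The 2 remaining root hair members, AT1G05240 and AT1G05250, lie side by side and had proteins that were 100% identical. In transcripts of AT1G05250, 100% of the stretches of 150 bases (the read length) also stand in another gene, and in AT1G05240 57.7% do, so that reads could not be assigned with certainty. Their values were low, at 0.213 to 1.02 FPKM for AT1G05240 and 0.235 to 1.66 FPKM for AT1G05250. The means of both were lower in OX under Al than in OX control, with log2 fold changes of -0.69 and -0.71 (adjusted p = 0.196 and 0.489).

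The 7 root hair peroxidases summed to 78.1, 31.8 and 34.7 FPKM in OX and 82, 40.3 and 76.5 FPKM in WT under Al, against 111, 124 and 175 FPKM in OX control and 64.3, 61 and 50.3 FPKM in WT control. The 8 root hair markers, which include the expansins EXPA7 and EXPA18 and the wall proteins PRP3 and LRX1, summed to 60.9, 26.7 and 29.8 FPKM in OX and 71, 44.9 and 70 FPKM in WT under Al, against 97.2, 106 and 125 FPKM in OX control and 62.9, 51 and 25.1 FPKM in WT control. In both sums the 3 OX control libraries were the highest of the 12, but the marker AT1G66470 had its highest mean in WT under Al (8.81 FPKM, compared to 7.20 FPKM in OX control). For the markers the median log2 fold change of Al over control was -1.55 in OX and 0.55 in WT. In OX, 1 of 8 was called lower (EXPA18, -1.54, adjusted p = 0.0469, not called by voom), compared to 0.578% of all genes. There 7 were lower without overlap, compared to 11.4% of all genes. In WT none of the markers was called, 1 had an unadjusted p under 0.05 and voom called 0. In a bulk sample, fewer cells of a type and less RNA per cell cannot be told apart, and the part of root hair number in the values of these peroxidases was not tested.

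Extensins are wall proteins that class III peroxidases cross-link, and several of them are specific to root hairs. Of 10 extensins in the table (1 of the 11 listed was not analysed here), 8 were lower in all OX libraries under Al than in all OX control libraries (compared to 11.4% of all genes), with a median log2 fold change of -1.36. In control, 6 were higher in OX than in WT without overlap (compared to 3.93% of all genes), with a median of 1.53. None was called in either comparison, voom called 0, and 7 and 6 had an unadjusted p under 0.05 (compared to 13.7% and 4.71% of all genes). In WT the median was 0.74 and no extensin had Al libraries apart from control libraries. For instance, AT3G54590 had 12.5 ± 9.06 FPKM in OX under Al and 36 ± 6.11 FPKM in OX control (SD, n = 3 each).

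**Figure D5:**
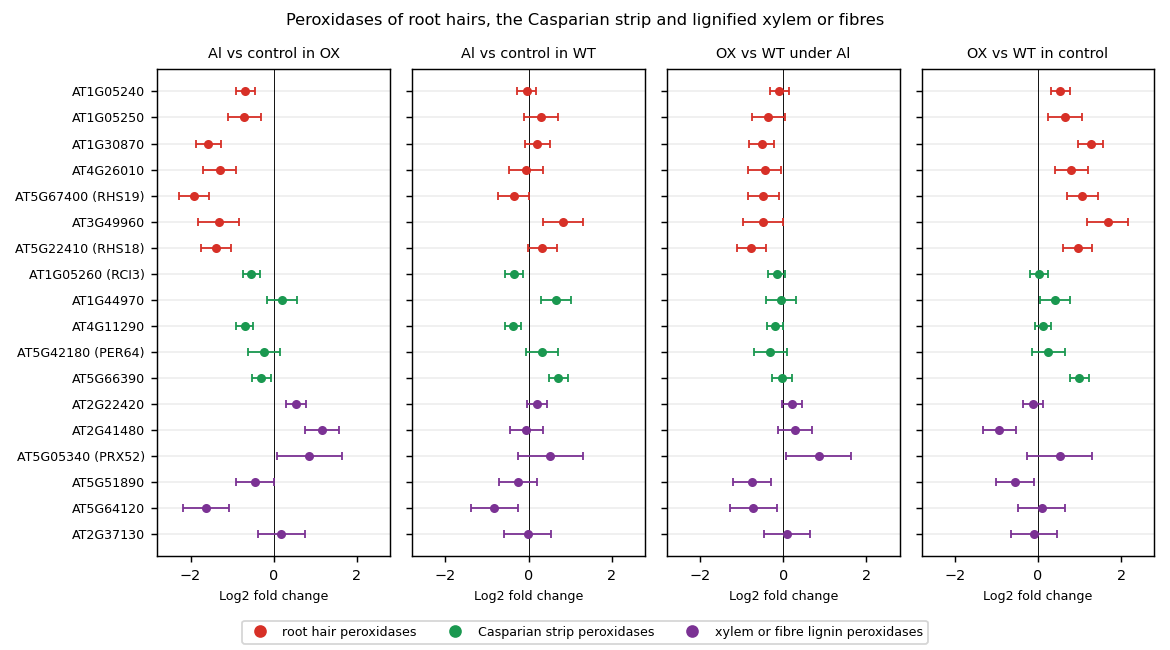
Log2 fold change with 1 SE for 18 peroxidases of 3 role groups, with Al over control in OX and in WT and OX over WT under Al and in control. For Al over control in OX, the 7 root hair peroxidases lay between -1.92 and -0.69, the 5 of the Casparian strip between -0.70 and 0.19 and the 6 of xylem or fibres between -1.63 and 1.16. For OX over WT in control, the 7 root hair peroxidases and the 5 of the Casparian strip all lay above 0.

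The Casparian strip is a ring of lignin around endodermal cells, and AT5G42180 (PER64) is 1 of the 5 peroxidases listed for it. AT5G42180 had 18.7, 22.3 and 14.2 FPKM in OX and 28.5, 14.8 and 27.1 FPKM in WT under Al, against 24.7, 17.1 and 23.6 FPKM in OX control and 37.3, 12.9 and 12.1 FPKM in WT control. These groups overlapped in every comparison. Of the 5 members listed for the Casparian strip, none was called in any comparison and voom called 0. An unadjusted p under 0.05 was found in 2 of them for Al in OX, in 1 for Al in WT and in 1 for OX against WT in control. In the average over both genotypes 2 were lower under Al at that p (compared to 18.3% of all genes in either direction). The lower adjusted p of the 2 was that of AT4G11290 (-0.54, adjusted p = 0.0567). For OX against WT averaged over both treatments and for the interaction it was 1 each (compared to 9.68% and 4.98%). AT5G66390 had 76.5, 99.7 and 69.4 FPKM in OX and 86.3, 86.6 and 74.9 FPKM in WT under Al, against 73, 98.1 and 138 FPKM in OX control and 55.4, 57.9 and 38.3 FPKM in WT control. AT5G66390, also known as peroxidase 72 from lignification, was higher in all WT libraries under Al and in all OX control libraries than in WT control, by 0.72 (adjusted p = 0.211, SE 0.23) and 0.99 (adjusted p = 0.38, SE 0.23) on the log2 scale. Both comparisons use the same 3 WT control libraries, which were the lowest of the 4 groups.

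AT1G05260 had 89, 74.1 and 65.2 FPKM in OX and 94.4, 61.5 and 104 FPKM in WT under Al, against 125, 108 and 97.8 FPKM in OX control and 109, 88.9 and 129.7 FPKM in WT control. AT4G11290 had 90.5, 60.5 and 72.6 FPKM in OX and 90.5, 68.5 and 97.9 FPKM in WT under Al, against 130.2, 124 and 106 FPKM in OX control and 101, 91.4 and 143 FPKM in WT control. AT1G05260 (RCI3) and AT4G11290 were both lower in all OX libraries under Al than in OX control, at log2 fold changes of -0.54 (adjusted p = 0.275, SE 0.21) and -0.70 (adjusted p = 0.127, SE 0.20). AT1G44970 had 4.80, 3.55 and 3.77 FPKM in OX and 5.38, 1.95 and 6.62 FPKM in WT under Al, against 3.95, 2.90 and 3.56 FPKM in OX control and 3.87, 1.69 and 2.29 FPKM in WT control. This member overlapped between groups in each comparison. The 8 markers of the Casparian strip, such as the CASP proteins, summed to 78.4 to 98.9 FPKM in OX and 89.1 to 136 FPKM in WT under Al, against 99.1 to 124 FPKM in OX control and 64.2 to 164 FPKM in WT control, and none of the 7 tested was called for Al in OX or in WT (2 and 1 had an unadjusted p under 0.05, and voom called 0).

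Peroxidases of lignified xylem and fibres showed no common direction. Of the 6 members listed, none was called in any comparison, voom called 0, and the median log2 fold change of Al over control was 0.36 in OX and -0.03 in WT. For Al in OX, 2 were higher and 1 lower at an unadjusted p under 0.05 (compared to 13.7% of all genes in either direction). In the average over both genotypes 1 was higher and 1 lower (compared to 18.3%), and for OX against WT in control 1 was lower (compared to 4.71%). For Al in WT there was none. AT2G41480 had 34.9, 79.7 and 80.4 FPKM in OX and 63, 38.4 and 51.7 FPKM in WT under Al, against 24.7, 29.5 and 26.8 FPKM in OX control and 32.7, 42.2 and 100 FPKM in WT control. AT2G41480 had its 3 lowest values in OX control, and its log2 fold change was 1.16 (adjusted p = 0.215, SE 0.40) in OX. AT5G05340 had 16.2, 48 and 51.5 FPKM in OX and 10.4, 60.2 and 10.5 FPKM in WT under Al, against 10.2, 32.6 and 19.7 FPKM in OX control and 5.24, 30 and 13.5 FPKM in WT control. AT5G05340 (PRX52), known from the lignin of fibres, overlapped between groups in every comparison. AT5G64120 had 104, 95.4 and 52.7 FPKM in OX and 74.7, 174 and 179 FPKM in WT under Al, against 254, 308 and 199 FPKM in OX control and 536, 266 and 90.9 FPKM in WT control. AT5G64120, also known as peroxidase 71, was lower in all OX libraries under Al than in OX control, with a log2 fold change of -1.63 (adjusted p = 0.207, SE 0.56), while its WT control libraries covered 90.9 to 536 FPKM.

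AT2G22420 had 10.8, 15.8 and 20.2 FPKM in OX and 13.4, 12 and 13.9 FPKM in WT under Al, against 7.68, 11.7 and 11.9 FPKM in OX control and 10.4, 9.53 and 14.4 FPKM in WT control. AT5G51890 had 3.76, 1.23 and 2.76 FPKM in OX and 3.57, 3.38 and 6.90 FPKM in WT under Al, against 5.13, 1.73 and 4.44 FPKM in OX control and 4.05, 3.84 and 9.45 FPKM in WT control. AT2G37130 had 147, 61.6 and 51.3 FPKM in OX and 51.8, 72.7 and 102 FPKM in WT under Al, against 90.4, 78.1 and 45.7 FPKM in OX control and 152, 86.6 and 30.2 FPKM in WT control. The groups of these 3 members overlapped in each comparison of Al with control. The 5 xylem markers, such as cellulose synthases of the secondary wall, summed to 20.5 to 43.6 FPKM in OX and 32.4 to 69.6 FPKM in WT under Al, against 30.4 to 50.8 FPKM in OX control and 36.9 to 73.8 FPKM in WT control, and none of them was called or had an unadjusted p under 0.05 for Al in OX or WT.

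Among the 4 members known from the oxidative burst, none was called in any comparison and voom called 0. For Al over control in OX, AT1G14540 (PER4) had the lowest log2 fold change of the 4. AT1G14540 had 34.9, 19.8 and 26.7 FPKM in OX and 26.2, 43.9 and 63.4 FPKM in WT under Al, against 47.6, 56.2 and 53.4 FPKM in OX control and 63.1, 39.7 and 23.1 FPKM in WT control. All OX libraries under Al were below all OX control libraries, with a log2 fold change of -0.97 (adjusted p = 0.26, SE 0.37). Its neighbour AT1G14550, which is in none of the role groups, was also lower in all OX libraries under Al. AT1G14550 had 8.49, 4.51 and 5.68 FPKM in OX and 5.40, 11.1 and 13 FPKM in WT under Al, against 15.5, 14.1 and 27.6 FPKM in OX control and 9.36, 11.6 and 6.77 FPKM in WT control. The log2 fold change of AT1G14550 was -1.52 (adjusted p = 0.0694, SE 0.35) in OX and 0.03 (adjusted p = 0.983, SE 0.35) in WT. AT4G33420 had 125, 163 and 147 FPKM in OX and 114, 96.8 and 127 FPKM in WT under Al, against 95.8, 116 and 89.4 FPKM in OX control and 101, 95.9 and 114 FPKM in WT control. Outside the role groups, AT4G33420 was one of the 3 tested members, with AT2G41480 and AT4G08780, whose OX libraries were all higher under Al, at 0.53 (adjusted p = 0.108, SE 0.15).

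Neighbouring members with similar proteins often had different levels. AT4G08770 and AT4G08780 had proteins 92.8% identical, with means over the 12 libraries of 66 and 42.6 FPKM. AT2G38380 and AT2G38390 were 89.4% identical and had 355 and 59.4 FPKM. The pair AT4G37520 and AT4G37530 was also 89.4% identical and had 362 and 46.3 FPKM, and AT5G06720 and AT5G06730 were 84.5% identical and had 35.1 and 14.9 FPKM. No stretch of 150 bases in these 8 genes stood in another gene, so that whole reads could tell them apart, but how reads with several matches were counted is not given in the sources used here. The median identity over all 1770 pairs of the 60 proteins was 40.2%.

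Few other genes of the same chemistry were called. Of 13 further class III peroxidases in the table, 6 passed the filter and none was called in any comparison (voom also called 0), with summed levels of 8.69 to 10.3 FPKM in OX and 9.48 to 15.1 FPKM in WT under Al, against 7.02 to 12.3 FPKM in OX control and 7.64 to 11 FPKM in WT control. Among 8 RBOH genes tested, RHD2, the NADPH oxidase of growing root hairs, was called lower under Al in OX (-1.39, adjusted p = 0.0231), with 6.53 FPKM on average in OX under Al and 17 FPKM in OX control. Over all genes, 0.578% were called lower for Al in OX. In the average over both genotypes, 4 of the 8 RBOH genes had an adjusted p of at most 0.05, all lower under Al. Of all genes, 5.13% had such an adjusted p in either direction. Of 18 genes of monolignol synthesis, which supplies the phenolic substrates, 1 was called, CCR2, a cinnamoyl-CoA reductase, which was higher under Al in WT (1.13, adjusted p = 0.0411, not called by voom), at 22.1 FPKM in WT under Al and 9.96 FPKM in WT control. Over all genes, 34 of 20773 were called higher for Al in WT. In the average over both genotypes, CCR2 (0.76, adjusted p = 0.0121) and CCR1 (0.55, adjusted p = 0.0215) were higher under Al. Both had an adjusted p of at most 0.05 (compared to 5.13% of all genes in either direction) but were below the limit on the fold change. The 3 laccases of lignin had no call, no unadjusted p under 0.05 and no voom call in any comparison of Al with control. UPB1, a transcription factor known to repress peroxidases in the root tip, had 24.9 FPKM on average in OX under Al and 17.5 FPKM in OX control, and 23.1 FPKM in WT under Al and 16.5 FPKM in WT control, and its averaged log2 fold change of 0.53 did not pass the test (adjusted p = 0.241).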

How the data were processed

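RNA-seq was run on 12 *Arabidopsis* root libraries, read as 150-base pairs. HISAT2 was used by the authors for alignment to TAIR10 and HTSeq (version 0.6.0 in the submitters' processing notes) for read counts per gene, and the values they deposited are FPKM. Whether the counting used strand, and how reads with several matches were treated, is not given in the sources used here.

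A gene was kept if 3 or more libraries had 0.5 FPKM or more, which left 20773 of 25872 genes. limma 3.58.1 in R 4.3.3 was fitted to log2(FPKM + 0.5), with 1 mean for each group and a variance trend, and p-values were adjusted by Benjamini-Hochberg over the genes kept. The pseudocount understates the change of low genes. Whole fragments could be recovered from the FPKM, within 0.02 fragments for 25440 genes by annotated exon length, and voom on them was an alternative.

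The members and lists were chosen with earlier results of these data known. Values by library are given for the 12 members with the highest mean, the called members, up to 3 members in each direction with the largest change among those whose groups did not overlap, the role groups of root hair, Casparian strip and xylem or fibres, and similar neighbours. AT1G14540 and AT1G14550 were described after their values were seen. The fit was also run on simulated counts, with changed genes only for Al against control in WT. The other comparisons were not simulated, and the outcome is not reported here. Other alternatives were pseudocounts of 0.1 and 1, no filter or a mean of at least 1 FPKM, quantile and median-ratio scaling, fits restricted to the compared groups, a replicate block, no variance trend, the adjusted p alone, leaving out each library, and leaving out both control libraries numbered 1.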

Additional observations from a re-analysis of the deposited data

How the results depend on the processing

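Of 616 values recomputed for 27 gene and comparison pairs, none turned its direction, 561 kept their side of the threshold, 52 lost a call and 3 gained one. Most of the 27 pairs were not called in the main fit, and for them staying uncalled counted as keeping their side. The 52 losses all fell on called pairs, so the 561 values do not measure how stable the calls were. For Al against control averaged over both genotypes, 4 members were called and 7 passed on the adjusted p alone. When 1 library was left out, 3 to 5 members were called, with both limits applied. For Al against control in OX, 3 members were called, against 1 with no filter on low values, 0 in a fit restricted to the compared groups, 0 without both control libraries numbered 1, and 0 to 6 when 1 library was left out. Voom on recovered fragments called 4 members in OX, all lower under Al, compared to 94 of 20771 genes called lower. In WT, 1 member was called, against 0 with no filter, 0 in a fit restricted to the compared groups, 0 with the replicate block, 0 without a variance trend, 0 with voom on recovered fragments, and 0 to 1 when 1 library was left out. Between OX and WT under Al, 0 members were called, against 1 (AT5G47000) in a fit restricted to the compared groups and 1 without both control libraries numbered 1. The cause of these changes was not tested. With the replicate block, 5 members were called in the average over genotypes and 4 in OX. Deviations from the group means, over all genes kept, correlated weakly between libraries with the same replicate number (r of -0.247 to 0.286). For the control libraries numbered 1 of OX and WT, r was 0.176. With 3 libraries a group, these values cannot show whether the numbers pair the samples. The counts of groups that do not overlap without both control libraries numbered 1 were chosen after seeing the data. With 3 libraries a group, differences smaller than the spread between libraries could not be shown.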
